A study of Paxillus involutus with 18 samples.

Results

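On the arrays of *Paxillus involutus*, 46 of 12214 isotigs (assembled transcript sequences) were higher on both maize compost extracts than on the control medium, while their change on forest litter extract and on carboxy methyl cellulose stayed small. The deposited values are logarithms whose base is not given in the sources used here. They were taken as log2, so that 1 is a 2-fold difference, and every fold below rests on that reading. A change is the mean of the 3 arrays of a medium minus the mean of the 3 control arrays on the same slide. An isotig was taken when its change was at least 1 on both compost extracts and under 0.7, a 1.62-fold difference, on the other 2 media. The 46 isotigs were thus chosen by their measured changes on all 4 media, so those changes are given below as a description. Where isotigs are counted or marked by an adjusted p on these changes, that too describes the set and tests nothing. One isotig, paxillus_2772, was left out by name, but its change on carboxy methyl cellulose was 1.07, so it would not have entered in any case.

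The fungus was the wild-type strain ATCC 200175, grown as mycelium without a plant in Petri dishes on glass beads. All cultures, the controls included, first grew for 9 days on Minimum Melin Norkrans (MMN) medium and then spent 24 h without nitrogen. For the next 7 days they were given hot-water extract of forest litter (FH), hot-water extract of maize compost (MH), cold-water extract of the same kind of compost (MC), carboxy methyl cellulose (CMC), a soluble derivative of cellulose, or MMN again as the control. The extracts had been passed through a 0.2 um filter and then ultrafiltered with a cut-off of 10 kDa to take out small molecules. Glucose was added to the extracts and to CMC, to the same final concentration as in MMN. MH and FH were hybridised on slide 1 and MC and CMC on slide 2, each slide with 3 MMN arrays, giving 18 arrays in 6 groups of 3.

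*Paxillus involutus* is an ectomycorrhizal fungus, a partner of tree roots that receives sugar from its host and supplies the host with nitrogen and other nutrients. Much soil nitrogen is held in organic matter bound up with polysaccharides, lignin residues and polyphenols, and ectomycorrhizal fungi have kept few of the enzymes with which saprotrophic relatives break down plant cell walls. Composting is itself a microbial decomposition, so compost extracts hold partly decomposed plant matter and microbial products.

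The random-sequence control probes, summarised together as a single value per array, gave values between 3.69 and 3.85 across the arrays. The values of the 46 isotigs lay between 9.57 and 14.15, well over that summary. The summary does not show how high single control probes read. By their mean, 8 of the 46 were among the dimmest 25% of isotigs. All 46 were read by 10 probes, as were 12203 of all isotigs. The replicates of a medium were separate cultures according to the series' design, though the labels leave unsaid whether both slides carry the same MMN cultures, and each culture yields bulk RNA, in which fewer cells of a kind and less RNA per cell cannot be told apart. One array, MC replicate 3, is described in free text as hot-water compost, but its title, source and medium all name MC, and it was kept as MC. Without it 43 of the 46 isotigs still met the thresholds and 1 other was added.

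In all, 550 isotigs reached a change of 1 on MH and 344 on MC, and 261 reached it on both. Of these 261, the change was at least 0.7 on both FH and CMC for 153, on FH alone for 12 and on CMC alone for 50, which left the 46. Isotigs that were higher on both compost extracts thus mostly also had a change of at least 0.7 on both of the other 2 media. The change of the 46 on MH ran from 1.02 to 2.20 with a median of 1.27, a 2.41-fold difference, beside a median of −0.06 over all isotigs and of 1.47 over the 215 others with both compost changes at 1 or more. On MC it ran from 1.01 to 3.43 with a median of 1.53, a 2.89-fold difference, beside −0.07 over all isotigs and 1.30 over the 215. The 46 therefore had the smaller typical change of the 2 sets on the hot-water extract and the larger on the cold-water extract.

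**Figure D1:**
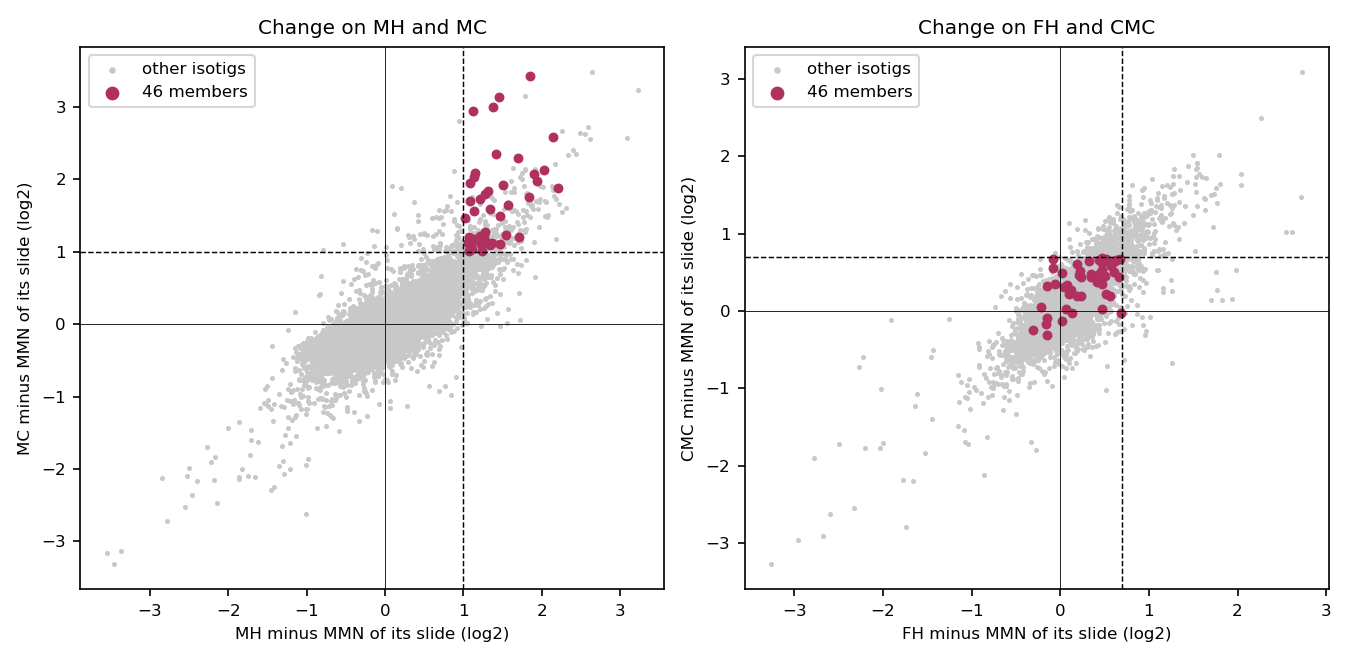
Each point is an isotig, placed by its change from MMN of the same slide in log2 units, MH against MC on the left and FH against CMC on the right. The 46 isotigs (dark red) lie past the dashed threshold of 1 on both axes at left and under the dashed threshold of 0.7 on both axes at right.

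In a linear model over all isotigs (limma, Benjamini-Hochberg adjustment), all 46 passed an adjusted p of 0.01 with over 2-fold difference on MH, where 4.49% of all isotigs did, and on MC, where 2.81% did. The 3 MH arrays lay above the 3 MMN arrays (32.9% of all isotigs) and the 3 FH arrays (29.5%) of their slide for all 46. The 3 MC arrays lay above the 3 MMN arrays (26.3%) and the 3 CMC arrays (18.7%) of theirs for all 46, and 7.37% of all isotigs met all of these conditions. The thresholds all but fix these counts, those of the arrays included, and nothing is read from them.

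Many of the 46 also had a small increase on the other 2 media. On FH the changes ran from −0.30 to 0.68 with a median of 0.28 (all isotigs −0.06), and 37 of 46 were above 0. On CMC they ran from −0.31 to 0.69 with a median of 0.44 (all isotigs −0.07), and 39 were above 0. At an adjusted p of 0.01 in the same model, 21 were higher than MMN on FH, where 16.5% of all isotigs were, and 29 on CMC, where 19.0% were. FH, CMC or both were higher by that test for 31 of the 46 (22.8% of all isotigs), both for 19 (12.7% of all isotigs), CMC alone for 10 and FH alone for 2, which leaves 15 that passed on neither. The change on CMC was larger than that on FH for 31 of the 46. Because the thresholds also used these contrasts, the counts describe the set and test nothing. Shares over all isotigs were not counted for changes above 0, for FH or CMC alone, or for a larger change on CMC.

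**Figure D2:**
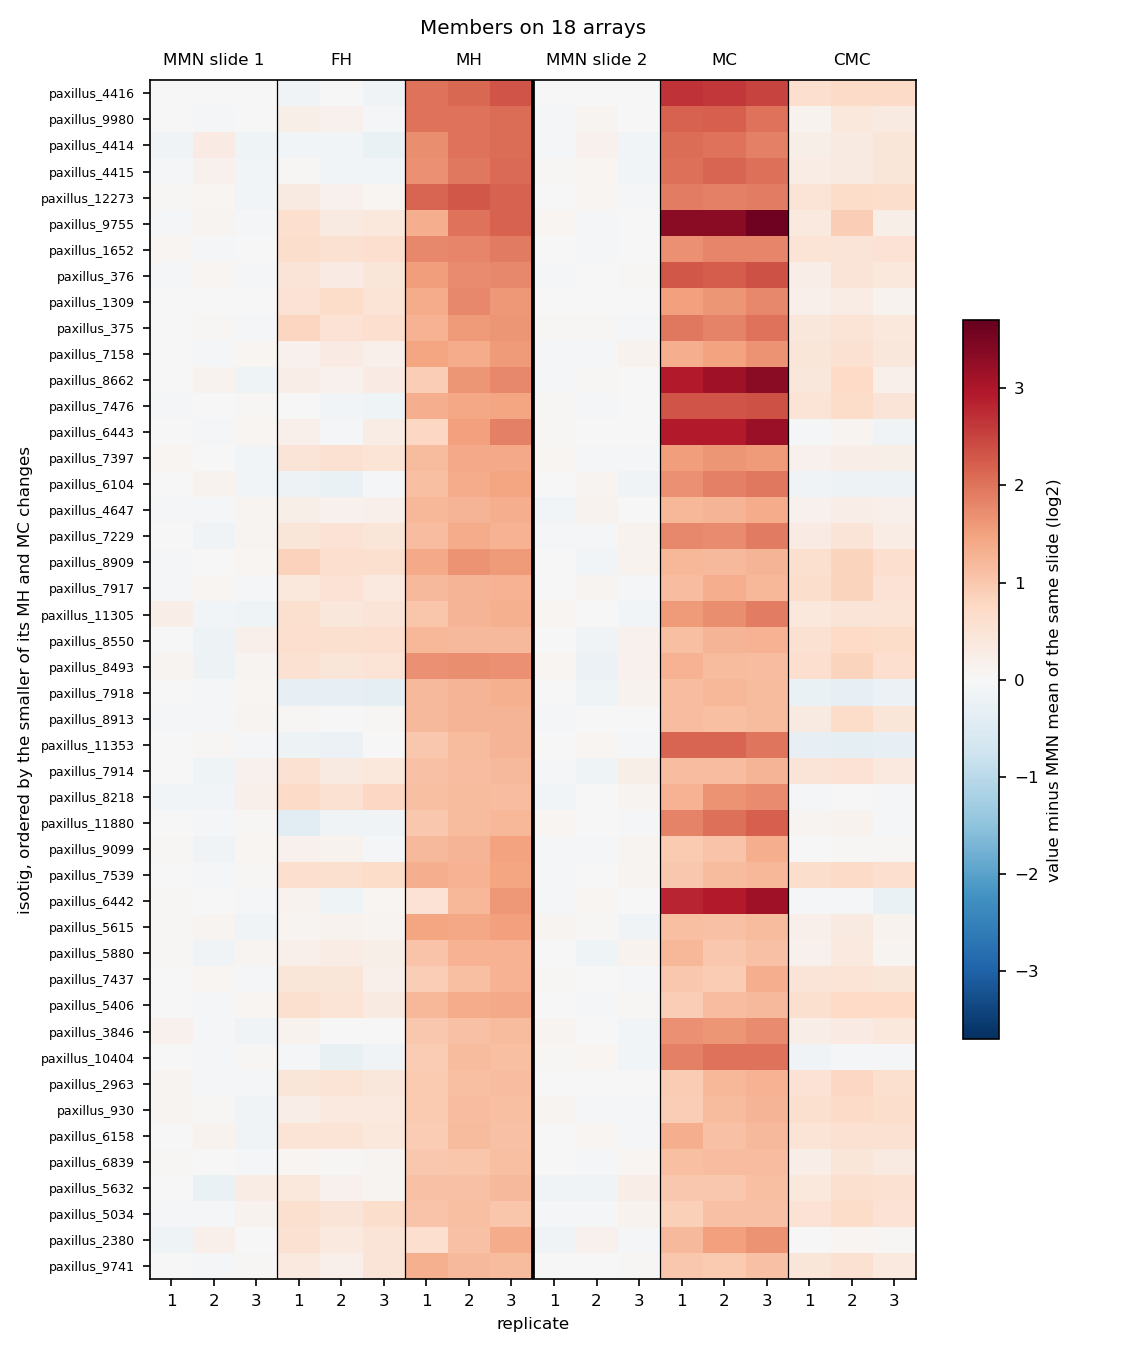
Colour gives each array's value minus the MMN mean of its slide (log2) for the 46 isotigs in rows, ordered by the smaller of their MH and MC changes, and the 18 arrays in columns by group and replicate. The MH and MC columns are red in every row, the FH and CMC columns are pale, and the darkest cells are those of paxillus_9755, paxillus_8662, paxillus_6443 and paxillus_6442 on MC.

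The files give each isotig a number and no function, so the isotigs are described by number, and what they encode was not analysed here. Apart from the count of dim isotigs above, levels of different isotigs were not compared, since each has probes of its own. The largest changes shared by both extracts were those of paxillus_4416 and paxillus_9980, the pair whose change was at least 2 on each. In all, 10 isotigs reached 1.5 on each.

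paxillus_9980 gave nearly the same increase on hot-water and cold-water extract. Its MMN arrays read 11.21, 11.16 and 11.19 on slide 1 and 11.25, 11.44 and 11.31 on slide 2. Its compost arrays read 13.19, 13.20 and 13.25 on MH and 13.52, 13.53 and 13.33 on MC, while FH gave 11.42, 11.35 and 11.15 and CMC gave 11.45, 11.71 and 11.67. The 6 compost arrays stood apart, and the FH arrays overlapped with MMN while the CMC arrays lay just above it. The changes were 2.03 ± 0.08 on MH (SE of the model, n = 3 against 3), a 4.07-fold difference, and 2.13 ± 0.08 on MC, a 4.37-fold difference. They were 0.12 ± 0.08 on FH and 0.28 ± 0.08 on CMC. Each SE, here and below, rests on the isotig's spread pooled over all 6 groups, so it does not show uneven scatter between media.

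paxillus_12273 had the largest change of the 46 on MH, 2.20 ± 0.07 or 4.59-fold. It read 12.82, 12.98 and 12.85 on MH against 10.72, 10.76 and 10.57 on MMN of that slide, and 12.62, 12.59 and 12.60 on MC against 10.71, 10.80 and 10.64. Its CMC arrays, at 11.22, 11.40 and 11.38, all lay above MMN and under MC, a change of 0.61 ± 0.07. On FH the arrays read 11.00, 10.85 and 10.76, and the lowest of them met the highest MMN array.

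paxillus_1652 showed the smallest scatter, with a residual SD of 0.054 over the 18 arrays. It read 11.65, 11.55 and 11.58 on MMN, 12.25, 12.16 and 12.20 on FH and 13.37, 13.40 and 13.52 on MH. On slide 2 it read 11.55, 11.50 and 11.54 on MMN, 12.04, 12.01 and 12.06 on CMC and 13.21, 13.33 and 13.34 on MC. The arrays of each slide fell into 3 separate levels without overlap, MMN lowest, FH or CMC between, and compost highest. Its changes were 1.84 on MH, 1.76 on MC, 0.61 on FH and 0.51 on CMC, each ± 0.05.

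Consecutive numbers accounted for 9 of the 46 isotigs, in 4 runs. An isotig is one assembled form, several of which can come from one gene, and which of these share a gene was not analysed, so the 46 isotigs may stand for fewer genes. In the run paxillus_4414 to paxillus_4416 the MH changes were 1.94, 1.90 and 2.15, the MC changes 1.98, 2.08 and 2.59, and the FH changes −0.15, −0.06 and −0.08. The 3 differed on CMC, at 0.33, 0.35 and 0.68, so that paxillus_4416 came close to the threshold of 0.7. Its neighbours outside the set, paxillus_4413 and paxillus_4417, had MH changes of 0.67 and −0.23.

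The array values of paxillus_4416 show how far apart the media were: MMN gave 9.71, 9.71 and 9.69 on slide 1 and 9.59, 9.60 and 9.61 on slide 2. MH gave 11.70, 11.82 and 12.04, MC 12.28, 12.21 and 12.09, FH 9.58, 9.71 and 9.57 and CMC 10.22, 10.31 and 10.30. FH reached no further than MMN, CMC lay above MMN on all 3 arrays, and the compost arrays were far above both. The pair paxillus_375 and paxillus_376 changed by 1.51 and 1.70 on MH and by 1.92 and 2.30 on MC, with 0.66 and 0.42 on FH. The next number, paxillus_377, had changes of 0.62 on FH, 1.04 on MH, 0.56 on MC and 0.80 on CMC and lay outside.

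The run paxillus_7917 and paxillus_7918 shows that neighbours in number can share the compost response and part elsewhere. Both changed by 1.26 on MH and by 1.23 and 1.17 on MC. On FH, however, paxillus_7917 changed by 0.43 ± 0.08 and paxillus_7918 by −0.30 ± 0.06, and on CMC by 0.66 ± 0.08 and −0.25 ± 0.06. The number before them, paxillus_7916, is annotated as a laccase, a copper enzyme that oxidises phenols, and it changed by 1.21 on FH, 1.11 on MH, 1.75 on MC and 1.40 on CMC.

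paxillus_7918 was also lower than MMN on both other media. It read 9.93, 9.91 and 10.01 on MMN of slide 1, 9.65, 9.66 and 9.63 on FH and 11.14, 11.21 and 11.27 on MH. On slide 2 it read 9.99, 9.82 and 10.09 on MMN, 9.73, 9.68 and 9.76 on CMC and 11.10, 11.19 and 11.14 on MC. The order was thus the same on both slides, with the litter or cellulose arrays under every MMN array and the compost arrays above. It was the one isotig of the 46 with an adjusted p under 0.01 for a lower value on FH (16.9% of all isotigs). With paxillus_11353 it was one of 2 on CMC (21.8% of all isotigs). The thresholds used the FH and CMC changes, so these calls are a description and no test.

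In all, 4 isotigs had changes under 0 on both FH and CMC, namely paxillus_7918, paxillus_6104, paxillus_11353 and paxillus_10404. Counted by arrays, the FH arrays lay above all MMN arrays for 27 isotigs (23.0% of all isotigs), under them for 3 (33.0% of all isotigs) and overlapped for 16. The CMC arrays lay above for 35 (25.8% of all isotigs), under for 3 (38.7% of all isotigs) and overlapped for 8. paxillus_11353 read 11.60, 11.68 and 11.55 on MMN of slide 2, 11.30, 11.29 and 11.30 on CMC and 13.76, 13.75 and 13.59 on MC. Its CMC arrays were nearly equal and all under MMN, while its MC arrays lay far above. Its changes were 2.09 ± 0.07 on MC, 1.14 ± 0.07 on MH, −0.15 ± 0.07 on FH and −0.31 ± 0.07 on CMC.

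**Figure D3:**
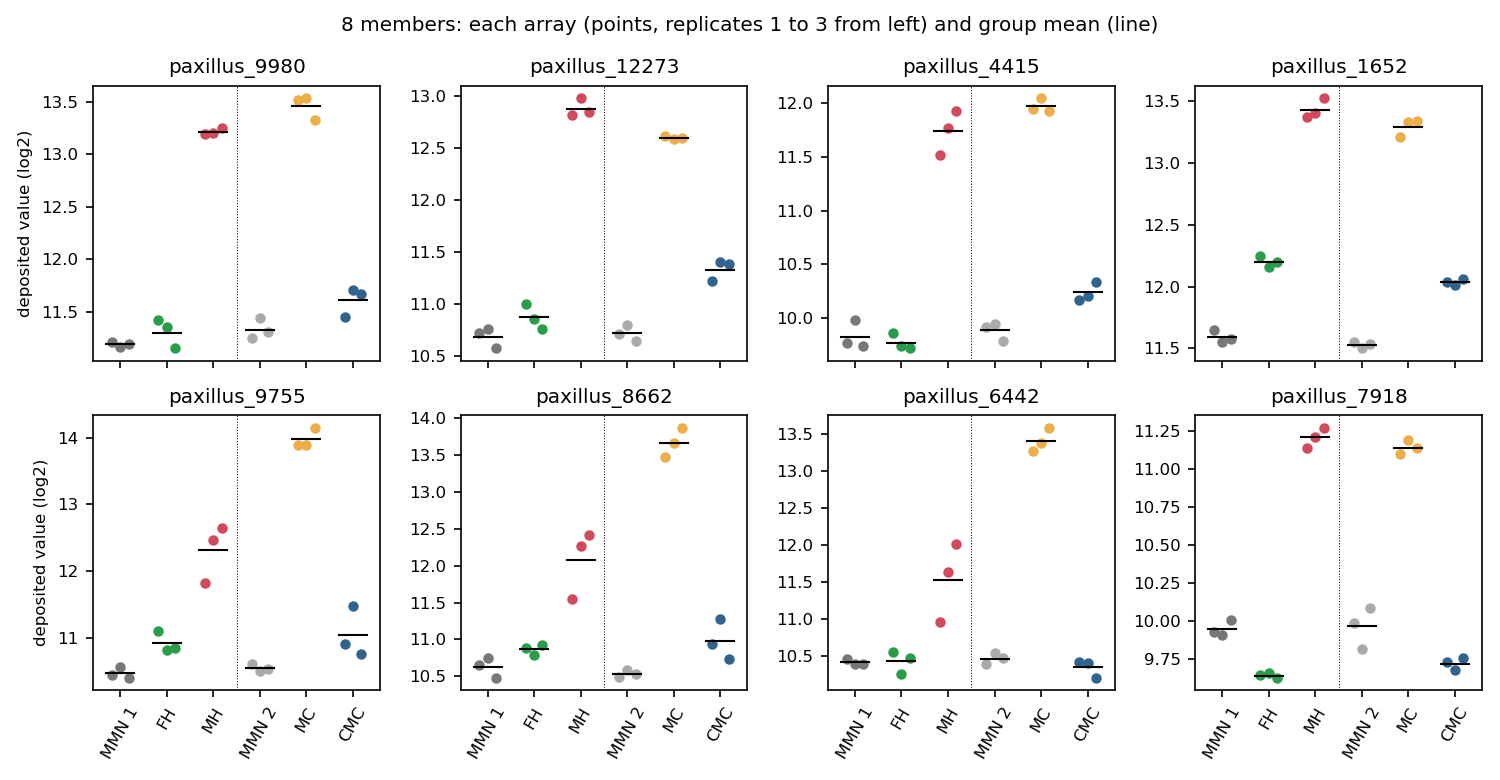
Deposited log2 values of 8 isotigs on each array (points, replicates 1 to 3 from left) with the group mean (line); the dotted line parts slide 1 from slide 2, and each panel has its own vertical range. paxillus_9980, paxillus_12273, paxillus_4415 and paxillus_1652 stood at like heights on MH and MC, paxillus_9755, paxillus_8662 and paxillus_6442 stood higher on MC, and paxillus_7918 fell under MMN on FH and CMC.

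The hot-water and cold-water extracts of compost gave unlike changes for a part of the set. MH change minus MC change ran from −1.83 to 0.51 with a median of −0.07, beside −0.01 over all isotigs. Of the 46, 25 isotigs were within 0.25 of equality. In the linear model an adjusted p of 0.01 was passed by 14 isotigs in favour of MC (11.1% of all isotigs) and by 2 in favour of MH (10.2% of all isotigs). The 14 became 12 to 15 and the 2 became 0 to 2 when single arrays were left out, with 0 in favour of MH without MH replicate 2, MH replicate 3, MMN slide 2 replicate 1, MC replicate 2 or MC replicate 3. The MC change was larger by over 0.5 for 13 of the 46 and the MH change for 1. Among the 215 others the counts were 4 and 16. MC was larger for 30 of the 46 and for 66 of the 215. Both changes entered the choice of the 46 and of the 215, so all of these counts describe the sets and test nothing. Shares over all isotigs were not counted for a difference within 0.25 or over 0.5, or for which change was larger. No trait particular to the 46 is read from those counts. MH and MC were also on different slides, and apart from the subtraction of each slide's MMN mean, slide and extract cannot be told apart.

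**Figure D4:**
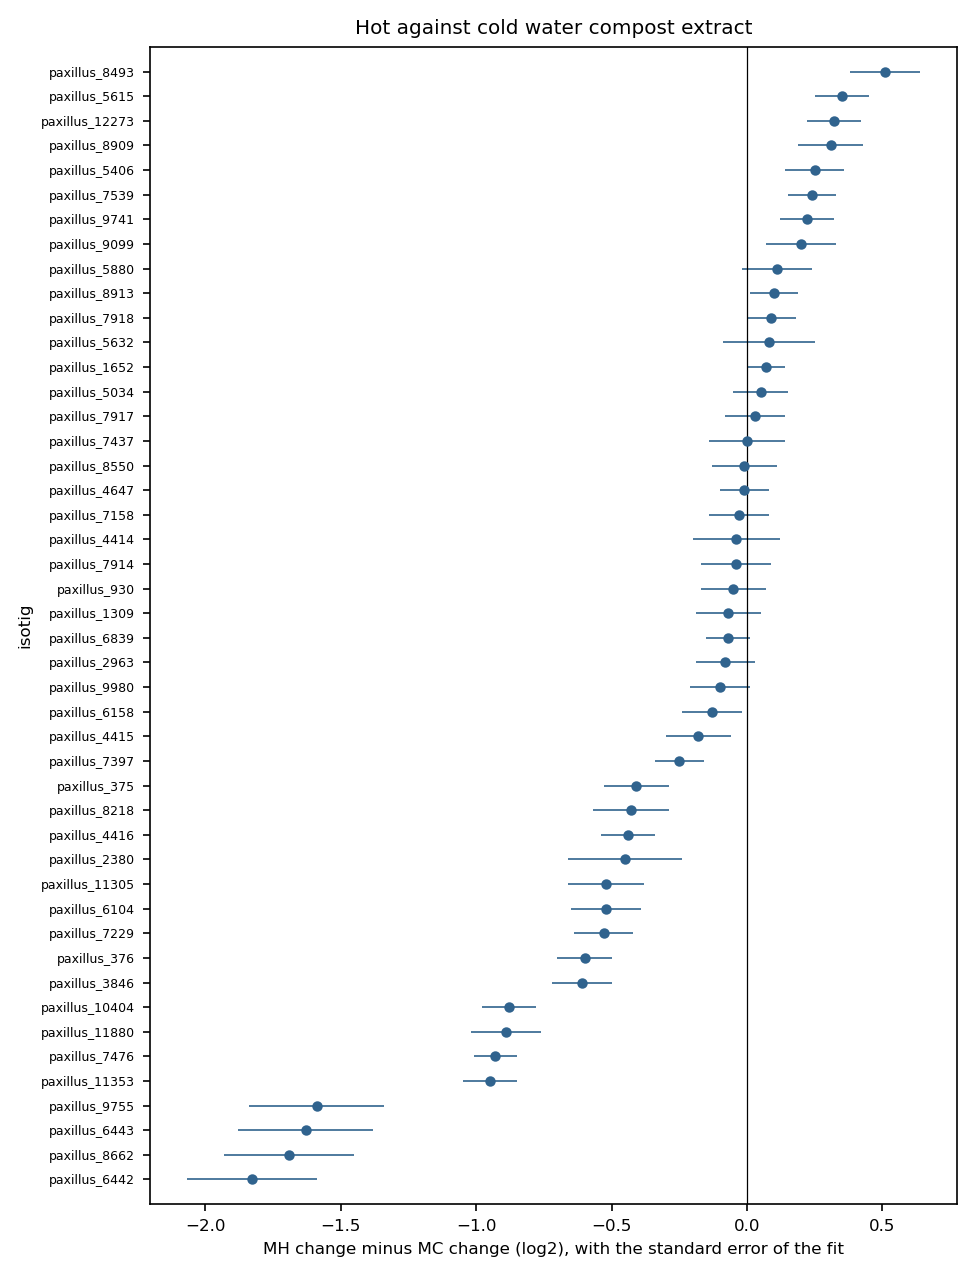
MH change minus MC change (log2) for each of the 46 isotigs, with the standard error of the model, pooled over all 6 groups, as bars. Most points lie near 0, 13 lie beyond −0.5, and the lowest 4 lie between −1.83 and −1.59, apart from the rest.

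The 4 isotigs with an MC change larger by over 1 were paxillus_6442, paxillus_8662, paxillus_6443 and paxillus_9755, and paxillus_6442 and paxillus_6443 are neighbours in number. paxillus_9755 had the largest change of all 46, at 3.43 ± 0.18 on MC, a 10.8-fold difference. It read 13.89, 13.89 and 14.15 on MC against 10.61, 10.50 and 10.53 on MMN, and 11.82, 12.47 and 12.64 on MH against 10.44, 10.56 and 10.40. On FH it read 11.10, 10.81 and 10.85, and on CMC 10.90, 11.47 and 10.76. Its MC arrays were close together, its MH arrays spread widely though all above FH, and CMC replicate 2 stood above the other CMC arrays. It also had the largest residual SD of the 46, 0.254, beside a median of 0.103 for the 46 and 0.083 for all isotigs.

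paxillus_6442 was at the MMN level on both FH and CMC, with changes of 0.01 ± 0.17 and −0.12 ± 0.17, and rose 7.74-fold on MC. Its MC arrays read 13.28, 13.38 and 13.59 and its MMN arrays on that slide 10.39, 10.53 and 10.47. On MH it read 10.95, 11.63 and 12.01 against 10.46, 10.39 and 10.38 on MMN. The lowest MH array was thus nearer to MMN than to the highest MH array. Its MH change of 1.12 fell to 0.88, under the threshold, without MH replicate 3 and was 1.41 without MH replicate 1, while its MC change was 2.87 without MC replicate 3.

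The same shape was seen in paxillus_6443, which read 11.04, 11.80 and 12.13 on MH and 13.41, 13.42 and 13.67 on MC, and in paxillus_8662, which read 11.55, 12.27 and 12.41 on MH and 13.47, 13.67 and 13.87 on MC. In both, MH replicate 1 lay far under the other MH arrays and the MC arrays lay over all of them. The changes were 1.37 and 3.01 for paxillus_6443 on MH and MC and 1.45 and 3.14 for paxillus_8662, with SEs of 0.18 and 0.17. Those SEs pool the spread of all 6 groups and understate the scatter on MH. The SDs were 0.56 and 0.46 on MH, against 0.15 and 0.20 on MC.

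A further group of isotigs had a cold-water excess of 0.52 to 0.95. It held paxillus_11353 and paxillus_10404, whose MC changes were 2.09 and 1.96 against 1.14 and 1.08 on MH. It also held paxillus_7476 and paxillus_11880, picked after their values were seen, with MC changes of 2.35 and 2.03 against 1.42 and 1.14. paxillus_10404 read 12.44, 12.69 and 12.63 on MH and 13.29, 13.44 and 13.43 on MC against MMN at 11.51, 11.48 and 11.54 and at 11.47, 11.51 and 11.32. The MH and MC arrays of that isotig did not overlap, and its MMN arrays of the 2 slides did. Over the 13 isotigs with an excess above 0.5 on MC, the median change was 0.05 on FH and 0.31 on CMC, beside 0.35 and 0.47 over the other 33. The changes behind the split and the medians share MMN means and all entered the choice of isotigs. These medians are therefore a description and no test.

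On the opposite side, paxillus_8493 had the largest excess on the hot-water extract, 0.51 ± 0.13. It read 14.01, 14.04 and 14.01 on MH and 13.63, 13.50 and 13.46 on MC, with MMN at 12.42, 12.12 and 12.41 and at 12.39, 12.11 and 12.49. The MH arrays were almost equal and above every MC array, while the MMN arrays of the 2 slides covered the same range. paxillus_5615 followed with 0.35 ± 0.10, and paxillus_12273 and paxillus_8909 had 0.32 ± 0.10 and 0.31 ± 0.12, which did not pass the adjusted p of 0.01. Both changes entered the choice of the isotigs, so passing or not is a description and no test.

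The uneven MH arrays were a feature of a few isotigs. MH replicate 3 exceeded MH replicate 1 by at least 0.5 for 5 of the 46 and for 1 of the 215 others, beside 0.982% of all isotigs. The 5 were paxillus_6443 (1.09), paxillus_6442 (1.07), paxillus_8662 (0.87), paxillus_9755 (0.82) and paxillus_2380 (0.76), so that the 4 with the largest cold-water excess were also those with the largest gap between MH cultures. Their SDs on MH, 0.56, 0.54, 0.46, 0.43 and 0.38, lay above those of 99.2% to 99.8% of all isotigs. A gap of 0.5 in the reverse direction was seen in none of the 46 and in 111 of all isotigs.

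Smaller shifts between cultures ran through much of the set on MH, CMC and MC. On MH, replicate 1 was the lowest of the 3 arrays for 39 of the 46 (84.8%), for 63.7% of the 215 others and for 38.8% of all isotigs, and replicate 3 was the highest for 69.6%, 36.7% and 36.2%. Mean deviations from the group mean were −0.141, 0.037 and 0.104 for the 46. On CMC, replicate 2 was the highest for 80.4% of the 46, 76.7% of the 215 and 36.8% of all isotigs. On MC, replicate 3 was the highest for 67.4%, 66.0% and 31.2%, and replicate 1 the lowest for 52.2%, 72.1% and 35.5%. Replicate 2 of MMN on slide 1 was the lowest for 43.5%, 67.4% and 34.8%. There the 46 hardly shifted: replicate 3 was the lowest for 47.8% of them, and their mean deviations were 0.009, −0.011 and 0.002. These deviations were not used in choosing the isotigs, but all isotigs of one array share a culture and a hybridisation, so they are not independent of each other.

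**Figure D5:**
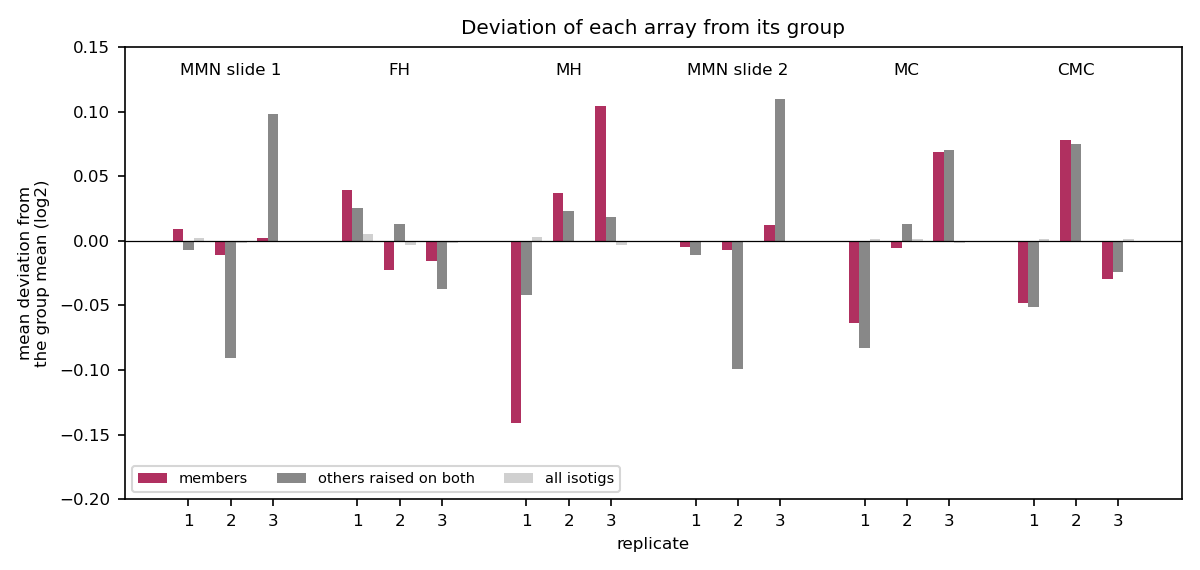
Bars give the mean deviation of each array from its group mean (log2), for the 46 isotigs, the 215 others with changes of 1 or more on both compost extracts, and all isotigs, by group and replicate. MH replicate 1 reaches −0.141 in the 46, and MMN replicates 2 and 3 stand off from 0 in the 215 others but hardly in the 46.

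The MMN means of the 2 slides lay within 0.3 of each other for 45 of the 46. How many of all isotigs did so was not counted, so nothing particular to the 46 is read from it. The exception was paxillus_2380, which read 10.20, 10.53 and 10.33 on MMN of slide 1 and 11.10, 11.37 and 11.18 on MMN of slide 2, without overlap and with an adjusted p under 0.01 for the difference of 0.87 (3.82% of all isotigs were higher on slide 2 by that test, and 4.31% lower, with none of the 46 among the latter). It read 10.96, 11.42 and 11.72 on MH, so that MH replicate 1 lay under all 3 MMN arrays of slide 2 although above those of its own slide, from which the change of 1.02 is taken. Against the mean of all 6 MMN arrays its MH change was 0.58 and its MC change 1.89, and without MH replicate 3 its MH change was 0.84. It also fell out without MH replicate 2, with an MH change of 0.99, and without MMN slide 1 replicate 1.

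Values near the thresholds did not break off. On MH, paxillus_2380 and paxillus_6839 were nearest inside, at 1.02 and 1.06, and paxillus_9370 and paxillus_7980 nearest outside, at 0.95 and 0.92. On MC, paxillus_9741 and paxillus_5034 were inside at 1.01 and 1.02, and paxillus_10091 and paxillus_5893 lay just outside at 1.00 when rounded. On FH, paxillus_8218 and paxillus_8909 at 0.68 and 0.67 faced paxillus_3251 and paxillus_8291 at 0.70 and 0.72.

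On CMC, paxillus_5406 and paxillus_8493 at 0.69 and 0.68 faced paxillus_5033 and paxillus_11703 at 0.70 and 0.71. The near miss paxillus_9370 had the shape of paxillus_6442, reading 10.60, 11.23 and 11.48 on MH and 12.63, 12.86 and 13.09 on MC against MMN at 10.17, 10.18 and 10.11 and at 10.13, 10.03 and 10.02. Its MH arrays were as uneven as those of the 4 isotigs above, with an SD of 0.45, and its MC change was 2.80. The 19 isotigs of the 46 outside the rule for naming had changes of 1.07 to 1.46 on MH, 1.04 to 2.35 on MC, −0.22 to 0.63 on FH and 0.02 to 0.66 on CMC.

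None of the isotigs with an annotated function that were examined here met the thresholds. These were 28 isotigs with 14 functions in oxidation, iron uptake, carbohydrate breakdown, central metabolism and, for phenylalanine ammonia lyase, pigment synthesis. The list was drawn up from isotigs that respond on these same arrays and so is not a neutral one. Of the 28, 14 changed by at least 1 on both MH and MC. CMC changes were 0.7 or more for 13 of these 14 and FH changes for 10. paxillus_1195, a tyrosinase, an enzyme that oxidises phenols, was the one with a small CMC change, 0.27, but changed by 1.77 on FH. Low on FH and high on CMC were paxillus_300, a siderophore isotig, siderophores being iron carriers, at 0.69 and 1.21, and paxillus_2315 and paxillus_2317, ferric reductases, which reduce iron for uptake, at 0.44 and 0.82 and at 0.45 and 0.88. paxillus_2772, a cytochrome P450 monooxygenase, from a family that oxidises many organic compounds, had changes of 1.53 on MH, 1.83 on MC, 0.19 on FH and 1.07 on CMC.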

How the data were processed

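RNA was hybridised to 18 single-colour NimbleGen arrays. The authors deposited one logarithm per isotig and array, read here as log2 since the base is not given in the sources used here, after robust multi-array average (RMA) summarisation, with a count of probe pairs per isotig; RMA's quantile step gives all arrays one distribution and can compress large changes. Groups followed the titles, since the medium label of MMN on slide 2 holds the strain. One linear model with 6 groups was fitted to all isotigs in limma 3.58.1 (R 4.3.3), tested on simulated data, with Benjamini-Hochberg adjustment. MH and FH share 3 MMN arrays, as do MC and CMC, and MMN arrays are numbered alike on the 2 slides, so MMN was also fitted with its culture as a random block. Isotigs and lists were chosen with earlier results of these data known. Named isotigs were those with the largest shared changes, the largest differences between extracts, the lowest FH and CMC values, neighbouring numbers, values nearest the thresholds and extreme residual SDs. The number of arrays, 3 in each group, limits the precision.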

Additional observations from a re-analysis of the deposited data

Results flagged for a closer look

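An adjusted p under 0.01 (limma, Benjamini-Hochberg) for MH change minus MC change picked out 16 of the 46 isotigs for a closer look. The same test was passed by 10.2% of all isotigs in favour of MH and by 11.1% in favour of MC. Both changes entered the choice of isotigs, so the values are a description and no test, and MH and MC lay on different slides. The differences furthest from 0 were those of paxillus_6442 (−1.83), paxillus_8662 (−1.69), paxillus_6443 (−1.63) and paxillus_9755 (−1.59). Next came paxillus_11353 (−0.95), paxillus_7476 (−0.93), paxillus_11880 (−0.89) and paxillus_10404 (−0.88). Smaller ones were seen for paxillus_3846 (−0.61), paxillus_376 (−0.60), paxillus_7229 (−0.53), paxillus_6104 (−0.52), paxillus_11305 (−0.52) and paxillus_4416 (−0.44). The change on MH was the larger for paxillus_8493 (0.51) and paxillus_5615 (0.35). paxillus_7476, paxillus_11880, paxillus_3846, paxillus_7229 and paxillus_11305 are named here after their values were seen.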

How the results depend on the processing

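The size of the set followed its thresholds. It held 26 isotigs with FH and CMC under 0.5 and 112 with both under 1, and 10 with MH and MC at least 1.5 and 179 with both at least 0.7. If the deposited values were natural logarithms, 89 isotigs would meet the thresholds, 24 of them from the 46. One MMN mean over both slides gave 48 isotigs with 42 of the 46, a repeated quantile normalization 46 with 42, and centring on array medians the 46 themselves. Leaving out each array in turn gave 42 to 52 isotigs; 31 of the 46 were kept each time, and 30 also under the 3 other scalings. The counts of the 46 then ran from 44 to 46 for higher on MH, 43 to 46 for higher on MC, 19 to 23 for an adjusted p under 0.01 on FH (22 with all arrays), 26 to 33 on CMC (31 with all arrays) and 12 to 16 for unlike MH and MC changes (16 with all arrays). With the replicate number as a block these counts were 46, 46, 22, 31 and 15, but media and MMN share only a number: deviations of same-numbered medium and MMN arrays correlated at 0.19, 0.03 and 0.08 for MH, −0.18, −0.03 and −0.04 for FH, 0.04, −0.06 and 0.22 for MC and −0.01, −0.28 and −0.14 for CMC. Every MH array and MC replicate 3 correlated best with their own number, and the other arrays of these media did not. Between the MMN arrays of the 2 slides the same-number correlations were 0.26, 0.45 and 0.49. With MMN culture as a random block 19 of the 46 had unlike MH and MC changes. One MMN mean gave 24 (6 in favour of MH, 18 of MC), and only the groups compared gave 12 (0 and 12). Over all 12214 isotigs the calls in favour of MH and of MC were 1249 and 1351 in the main model. They were 1787 and 2062 with the random block, 2280 and 2230 with one MMN mean, and 928 and 879 with only the groups compared. The counts of the 46 thus rose and fell with those of all isotigs, and nothing is read from them.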
